A study of Mus musculus with 10 samples.

Results

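The signalling lymphocytic activation molecule (SLAM) family is a group of immunoglobulin-type receptors on leukocytes. Most of its members bind another copy of themselves on a neighbouring cell, and most carry tyrosine motifs in the cytoplasmic tail that recruit the small adaptors SAP and EAT-2. CD48 differs in being held in the membrane by a lipid anchor, and SLAMF8 and SLAMF9 have short tails without those motifs. In brain, myeloid cells, above all microglia, are the main cells known to carry CD84 and SLAMF9. The genes described here are *Cd84*, *Slamf7*, *Slamf8*, *Slamf9*, *Cd48* and *Ly9*, which are 6 of the 9 SLAM family genes of the mouse and 6 of the 56884 genes in the count table. They were chosen by name from earlier results of the same DHT against void comparison, so their own values in that comparison are given as a description without a test. The study also showed disease-associated microglia genes picked from those raised with DHT in these libraries. Its text names neither *Cd84* nor *Slamf9* among them. If they are in that set, their direction is not independent evidence.

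Hippocampal RNA was sequenced from 10 female P301S (PS19) mice, 1 library per mouse. The mice carry human Tau with the P301S mutation under the mouse prion promoter, so the transgene is not restricted to microglia, and they kept their ovaries. At 6 months of age, 5 received a subcutaneous tube with 10 mm of dihydrotestosterone (DHT), an androgen that aromatase cannot turn into estrogen, and 5 received an empty (void) tube. After 12 weeks, at 9 to 9.5 months, the mice were perfused and the hippocampi dissected. Total counts ranged from 27188854 to 47113661 in void-treated mice and from 33523527 to 45947784 in DHT-treated mice. Values below are CPM, the counts of a gene scaled to a common library size with the TMM factors of edgeR. Neuronal genes were abundant in every library: 8 hippocampal neuron markers, with *Snap25* the most abundant, summed to 2738 ± 96.4 CPM in void-treated and 2583 ± 173 CPM in DHT-treated mice (SD, n = 5 each). The S numbers in the library names are all lower for void than for DHT. What they stand for is not stated in the sources used here, and whatever goes with them cannot be told apart from treatment.

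*Cd84*, *Slamf8*, *Slamf9*, *Cd48* and *Ly9* were at higher levels in DHT-treated than in void-treated hippocampus, by 1.32 to 2.50 on the log2 scale, and for each of the 5 genes every DHT-treated mouse lay above every void-treated mouse, as was so for 950 of 17622 tested genes (5.39%). *Slamf7* was near the limit of detection in both groups. Over the whole table, 382 of the tested genes (2.17%) were called higher and 4 (0.0227%) lower (quasi-likelihood test of edgeR, Benjamini-Hochberg adjusted p under 0.05 and log2 fold change beyond 1). At the adjusted p alone, 920 genes (5.22%) were higher and 46 (0.261%) were lower. These counts depend on single mice: with each left out in turn, the first 2 ranged from 175 to 513 and from 0 to 7, and the last 2 from 351 to 1072 and from 5 to 77. All 4 were 0 in edgeR with a choroid plexus covariate, described below. The 5 genes are among the 382, and nothing is read from this, since the same comparison chose them. In bulk tissue, more cells of a type and more RNA per cell cannot be told apart.

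**Figure D1:**
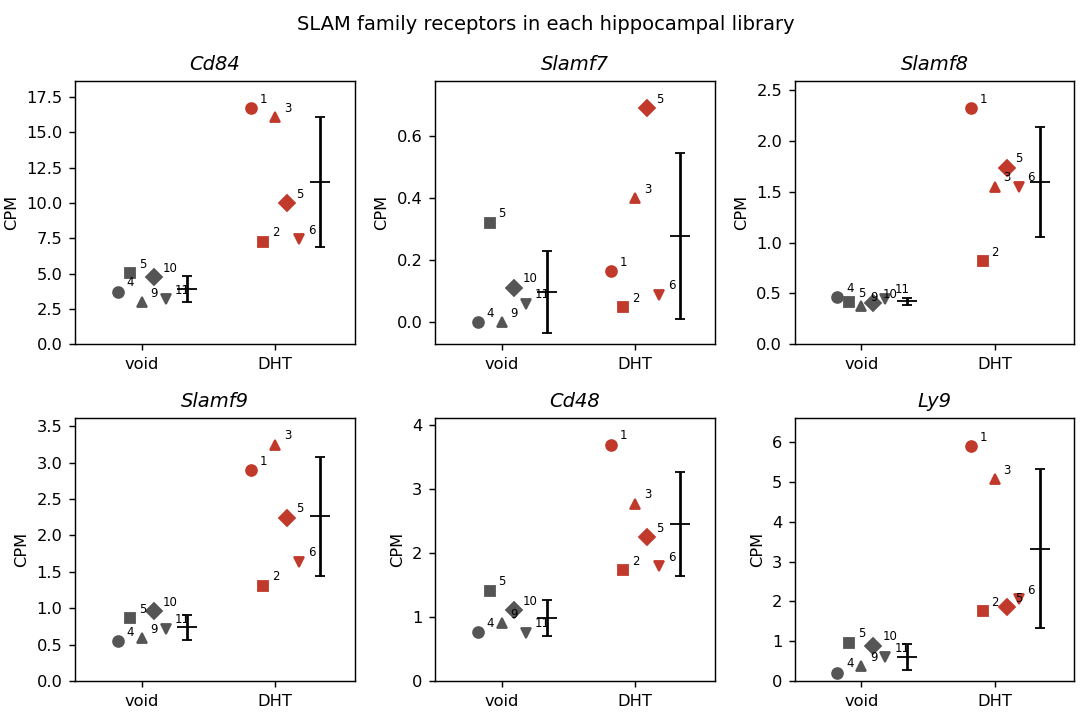
Normalized level of the 6 SLAM receptors in each library, in CPM, for 5 void-treated (grey) and 5 DHT-treated (red) mice, labelled by replicate number; black bars are the mean and SD. The groups are apart for *Cd84*, *Slamf8*, *Slamf9*, *Cd48* and *Ly9* and overlap for *Slamf7*, and DHT replicates 1 and 3 are high for most of the genes.

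CD84 is a self-binding receptor of macrophages, microglia, platelets and B cells. *Cd84* (ENSMUSG00000038147.15) was at 3.72, 5.02, 2.98, 4.72 and 3.21 CPM in void replicates 4, 5, 9, 10 and 11. It was at 16.7, 7.25, 16.1, 10.0 and 7.41 CPM in DHT replicates 1, 2, 3, 5 and 6. The DHT-treated mice thus fell into a pair at 16 CPM or more and 3 lower mice, of which the lowest was still above the highest void-treated mouse. The mean rose from 3.93 ± 0.906 to 11.5 ± 4.62 CPM (SD, n = 5 each), which is 1.55 ± 0.26 (SE) on the log2 scale. *Cd84* supplied more than any other member of the counts, from 51.0% to 65.2% of the summed CPM of the 6 genes in a mouse.

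Among the members with short tails, SLAMF9 is a receptor of myeloid cells. *Slamf9* (ENSMUSG00000026548.5) was at 0.550, 0.863, 0.589, 0.959 and 0.719 CPM in void replicates 4, 5, 9, 10 and 11. In DHT replicates 1, 2, 3, 5 and 6 it was at 2.90, 1.31, 3.25, 2.24 and 1.64 CPM. Replicates 1 and 3 were again the highest, and the log2 difference was 1.64 ± 0.27 (SE). SLAMF8 is known for restraining the phagocyte NADPH oxidase in macrophages. *Slamf8* (ENSMUSG00000053318.8) was nearly level among void-treated mice, at 0.465, 0.415, 0.372, 0.406 and 0.449 CPM in the same order. In the DHT-treated mice it was at 2.32, 0.814, 1.55, 1.74 and 1.55 CPM. Here only replicate 1 stood high and replicate 2 stood low, with the other 3 mice close together. The log2 difference of *Slamf8* was 1.90 ± 0.26 (SE).

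CD48 is the ligand of CD2 and of the family member CD244. *Cd48* (ENSMUSG00000015355.14) was at 0.761, 1.41, 0.900, 1.11 and 0.749 CPM in void replicates 4, 5, 9, 10 and 11. It was at 3.69, 1.73, 2.76, 2.24 and 1.79 CPM in DHT replicates 1, 2, 3, 5 and 6. Its groups came closest among the 5 genes, with void replicate 5 at 1.41 CPM and DHT replicate 2 at 1.73 CPM, and its log2 difference was 1.32 ± 0.25 (SE). LY9 (CD229) is a self-binding receptor best known from lymphocytes. *Ly9* (ENSMUSG00000004707.15) was at 0.211, 0.959, 0.372, 0.886 and 0.599 CPM in the void-treated mice. In the DHT-treated mice it was at 5.90, 1.75, 5.07, 1.86 and 2.05 CPM. Replicates 1 and 3 were more than 2 times as high as the other 3 DHT-treated mice, and the log2 difference of 2.50 had the widest standard error of the members, 0.47. Summed B cell markers, nearly all *Ighm*, were also highest in these 2 DHT-treated mice, as given below. *Ly9* overlaps *Cd244a* on the opposite strand in the reference annotation, and how the counting treated strand is not given in the sources used here, so reads of these 2 genes may be shared.

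SLAMF7 takes part in phagocytosis by macrophages together with the integrin Mac-1. *Slamf7* (ENSMUSG00000038179.14) had 0, 10, 0, 3 and 2 counts in void replicates 4, 5, 9, 10 and 11. It had 6, 2, 19, 23 and 3 counts in DHT replicates 1, 2, 3, 5 and 6. The groups overlapped, and 2 of the 5 DHT-treated mice were above the highest void-treated mouse. The zeros in void replicates 4 and 9 allow up to 0.0634 and 0.0931 CPM (3 counts, counting error only). *Slamf7* was the member that failed the expression filter of edgeR, which asked for about 0.292 CPM in at least 5 libraries. The other members reached that level in every void-treated and DHT-treated library, except *Ly9*, which reached it in 4 of the 5 void-treated mice.

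Levels of different genes were compared per kilobase of exon, with lengths from a reference annotation that is not the one used for counting. On this scale the void-treated order was *Cd48* (0.828 ± 0.232 CPM per kb), *Cd84* (0.626 ± 0.144), *Slamf9* (0.561 ± 0.133), *Ly9* (0.183 ± 0.0972), *Slamf8* (0.137 ± 0.0119) and *Slamf7* (0.0214 ± 0.0289; SD, n = 5 each). In the DHT-treated mice the order was the same. The level per kb was 2.05 ± 0.683 for *Cd48*, 1.83 ± 0.736 for *Cd84*, 1.73 ± 0.623 for *Slamf9* and 1.01 ± 0.603 for *Ly9* (CPM per kb; SD, n = 5). It was 0.518 ± 0.175 for *Slamf8* and 0.0607 ± 0.0582 for *Slamf7* on the same scale. In both groups the neighbours *Cd48* and *Cd84*, *Cd84* and *Slamf9*, and *Ly9* and *Slamf8* differed by less than the larger of their SDs, and the other neighbours in the order by more.

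The remaining 3 family genes were low. *Slamf6*, a self-binding receptor of lymphocytes, averaged 0.279 ± 0.102 CPM in void-treated and 0.784 ± 0.247 CPM in DHT-treated mice (SD, n = 5 each). It differed by 1.51 ± 0.29 (log2, SE), and its groups were apart. Only 2 void-treated mice reached the filter level for *Slamf6*, against 5 DHT-treated mice, so it entered the test largely through the group in which it was high. Its difference is therefore given as a description. *Cd244a*, the receptor for CD48, differed by 0.79 ± 0.33 (log2, SE), with an adjusted p of 0.228 in edgeR and overlapping groups. It reached the filter level in 2 void-treated and 4 DHT-treated mice, so its difference, too, is a description. *Slamf1*, the founding member of the family, had 4 to 8 counts with void and 1 to 13 with DHT and did not reach the expression filter of edgeR.

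Whether the members moved beyond the general microglial content was described by the log2 CPM of each member minus the mean log2 CPM of 12 microglia markers, per mouse. All 12 markers were tested and 4 were higher with DHT at the adjusted p, beside 5.22% of all tested genes. Their summed level was 516, 518, 499, 571 and 519 CPM in void replicates 4, 5, 9, 10 and 11. It was 953, 682, 695, 736 and 697 CPM in DHT replicates 1, 2, 3, 5 and 6. Void replicate 10 and DHT replicate 1 stood above their groups, and the groups were apart (log2 difference 0.51, two-sided exact permutation test, adjusted p = 0.0291 over 11 marker lists, the raw p of 0.00794 being the smallest that 5 mice against 5 allow). No marker was at 0.

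Relative to these markers, the difference between DHT and void was 1.05 for *Cd84*, 1.08 for *Slamf9* and 1.3 for *Slamf8* on the log2 scale, and it was 1.90 for *Ly9*. For these 4 genes every DHT-treated mouse remained above every void-treated mouse, as did 163 of the 17622 tested genes (0.925%) on this scale. *Cd48* differed by 0.82 on this scale, and its groups then overlapped. The difference was 0.72 for *Slamf7*, less than its spread among void-treated mice (SD 1.13), and it ranged from 0.31 without DHT replicate 5 to 1.14 without void replicate 5. The part that microglial number has in these differences was not tested.

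Across mice of the same group, the members rose and fell to a varying degree together. With each group's mean subtracted, Pearson's r of log2 CPM over the 10 mice lay between 0.395 and 0.909 for the 10 pairs of the 5 filtered members. The closest pair was *Cd84* and *Slamf9* (r = 0.909) and the least close *Slamf8* and *Ly9* (r = 0.395). For the family gene *Cd244a*, r with these members ran from -0.139 for *Slamf8* to 0.408 for *Cd84*, and was 0.153 for *Ly9*. For *Slamf6* it ran from 0.441 for *Cd84* to 0.535 for *Slamf9*. These values are a description, and the points share library preparation and normalization. DHT replicate 2 had the lowest CPM of the DHT-treated mice for all 6 members, and replicates 1 and 3 were each among the top 2 for 5 of them.

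The pool for likeness in this measure was the 13545 tested protein-coding genes outside the family with a mean log2 CPM above 0. Picking the highest of so many values over 10 mice gives some high ones by itself. The 5 genes most like each member were as follows. For *Cd84* they were *Plek* (r = 0.984), which encodes the phagocyte and platelet protein pleckstrin, *Mpeg1* (0.978), a pore-forming macrophage protein, *Xlr* (0.970), *Itga6* (0.963) and *Eya4* (0.953). *Xlr* belongs to a family of near-identical copies, and its counts are uncertain. For *Slamf9* they were the chemokine *Ccl6* (0.952), *Clec5a* (0.949), the leukocyte actin-bundling gene *Lcp1* (0.949), *Sp110* (0.942) and *Nr6a1* (0.929). *Sp110*, too, has near-identical copies. *Lcp1* was also among those of *Ly9* (0.937), after *Fbxw10* (0.973) and *Tgif1* (0.969) and before *Ptges* (0.935) and *Igtp* (0.926). For *Slamf8* the list was *1700010I14Rik* (0.954), *Il21r* (0.920), *Fyb2* (0.919), and the signalling genes *Ptpn6* (0.910) and *Rac2* (0.906). For *Cd48* it was *Prkch* (0.970), *Galnt4* (0.949), *Klhl6* (0.945), *Lamp1* (0.942) and *Adgrg2* (0.939). Each r is over the same 10 mice, as a description.

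A list of 36 genes tied to SLAM receptors, called signalling genes here, was followed, and 32 of them were tested. Beside adaptors, kinases, phosphatases and effectors, it holds 6 genes of the NADPH oxidase and 4 around Mac-1. These 2 sets supplied 6 and 3 of the genes past the adjusted p in the next sentence. At an adjusted p under 0.05 in edgeR, 18 were higher with DHT, 0 were lower and 14 were neither, beside 5.22% higher and 0.261% lower over all genes tested. The list was drawn up with earlier results of these data known. The study names *Tyrobp*, which is on the list, among the genes raised with DHT in these libraries. These counts are therefore a description and not independent evidence. At an unadjusted p under 0.05 the counts were 22 higher and 0 lower, beside 2316 higher and 743 lower of all 17622. At the adjusted p of DESeq2, which was fitted to 35326 genes with all 36 of the list among them, 20 were higher and 0 lower, beside 1221 higher and 224 lower of all. The median log2 fold change over the 32 genes was 0.62, against 0.0094 over all 17622 genes tested. The 3 adaptors and *Cd2*, the T cell partner of CD48, had too few counts for the expression filter of edgeR. *Sh2d1a*, which encodes SAP, averaged 0.132 ± 0.0809 CPM in void-treated and 0.118 ± 0.0207 CPM in DHT-treated mice (SD, n = 5 each). *Sh2d1b1*, which encodes EAT-2, averaged 0.0787 ± 0.0505 and 0.180 ± 0.0792 CPM, and *Sh2d1b2* and *Cd2* were lower still in both groups.

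Kinases of the Src family and Syk and Btk were also followed. *Fgr*, a Src-family kinase of myeloid cells, averaged 0.211 ± 0.147 CPM with void and 1.65 ± 0.741 CPM with DHT (SD, n = 5 each). The log2 difference was 3.0 ± 0.48 (SE). Only 1 void-treated mouse reached the filter level for *Fgr*, against 5 DHT-treated mice, so it was tested because of its level with DHT. Its difference is therefore a description, although *Fgr* is counted among the 18 genes above. *Btk* rose by 0.94 ± 0.22 (log2, SE; adjusted p = 0.0289) and *Lyn* by 0.60 ± 0.12 (adjusted p = 0.0148) in edgeR. *Lck*, *Syk*, *Csk*, *Fyn* and *Src* did not pass. *Fyn*, the kinase that SAP recruits and the most abundant of these kinases per kb, averaged 142 ± 1.58 CPM in void-treated and 145 ± 10.8 CPM in DHT-treated mice (SD, n = 5 each; log2 difference 0.021 ± 0.056, SE).

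Among the phosphatases, *Ptpn6* (SHP-1) rose by 1.22 ± 0.16 (log2, SE; adjusted p = 0.00670), *Ptprc* (CD45) by 1.25 ± 0.28 (adjusted p = 0.0251) and *Inpp5d* (SHIP-1) by 0.59 ± 0.11 (adjusted p = 0.0130). *Ptpn11* (SHP-2), which is widely expressed, did not pass (log2 difference 0.11 ± 0.061, SE). Of 5 effectors, the exchange factor *Vav1* and the protein kinase C isoform *Prkcq* rose by 0.78 and 0.64, with adjusted p values of 0.0222 and 0.0262, while the values of DHT-treated and void-treated mice overlapped for *Vav1*. *Plcg1*, *Plcg2* and *Grb2* did not pass in edgeR, though *Plcg2* did in DESeq2. None of the 4 genes of the Vps34 lipid kinase complex (*Pik3c3*, *Pik3r4*, *Becn1* and *Uvrag*), which SLAMF1 is known to engage at the phagosome, passed the test in edgeR or in DESeq2, nor did any have an unadjusted p under 0.05 in edgeR, and their log2 differences lay between -0.049 and 0.014.

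Genes of the phagocyte NADPH oxidase, the enzyme that SLAMF1 promotes and SLAMF8 restrains, also rose. *Cybb*, its catalytic subunit, averaged 1.02 ± 0.851 CPM in void-treated and 6.12 ± 3.83 CPM in DHT-treated mice (SD, n = 5 each), a log2 difference of 2.62 ± 0.54 (SE; adjusted p = 0.0170 in edgeR). DHT replicate 2, at 2.15 CPM, lay below void replicate 5, at 2.40 CPM, so the *Cybb* groups overlapped. The cytosolic subunit *Ncf4* rose by 1.39 ± 0.24 (log2, SE; adjusted p = 0.00965) and the small GTPase *Rac2* by 1.11 ± 0.17 (adjusted p = 0.00761). *Cyba* and *Ncf1* rose by 0.98 and 0.75. Of the 4 genes around Mac-1 and SLAMF7-dependent phagocytosis, *Tyrobp* rose by 1.31 ± 0.19 (log2, SE; adjusted p = 0.00670), the integrin chain *Itgb2* by 1.10 ± 0.19 and *Fcer1g* by 0.96 ± 0.17 (adjusted p = 0.00990 for both). *Itgam*, the other Mac-1 chain, differed by 0.55 ± 0.16 and did not pass in edgeR (log2, SE; adjusted p = 0.0658) but did in DESeq2. The number of signalling genes past the threshold fell from 18 to 9 without void replicate 11. *Ptpn6* and *Tyrobp* are among the myeloid genes whose level also depends on how much microglial RNA a sample holds, and that part was not tested.

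Choroid plexus RNA moved with the treatment. Of its 12 markers, all tested, 5 were higher with DHT at the adjusted p, beside 5.22% of all tested genes. No choroid plexus marker was at 0. The summed level was 930, 115, 1881, 448 and 120 CPM in void replicates 4, 5, 9, 10 and 11. It was 3084, 2161, 2196, 2307 and 2530 CPM in DHT replicates 1, 2, 3, 5 and 6. The groups were apart, by 2.59 in log2 units (adjusted p = 0.0291 over 11 lists, two-sided exact permutation test; 0.0655 to 0.0873 when any 1 DHT-treated mouse was left out), and void-treated mice differed far more among themselves than DHT-treated mice did. *Ttr* was the most abundant marker and the only one for which a void-treated mouse, replicate 9 at 1335 CPM, reached the range of the DHT-treated mice. Within groups, r between a member and the mean of the choroid plexus markers lay between -0.374 for *Ly9* and 0.0155 for *Slamf8* (10 mice, a description). With the mean of the microglia markers it lay between 0.604 for *Slamf9* and 0.697 for *Cd48*.

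When the choroid plexus score entered the model, no gene of the 17622 passed an adjusted p of 0.05 in edgeR. The counts at an unadjusted p under 0.05 were 966 higher and 241 lower, and DESeq2 was not run with this covariate. With it, the log2 difference was 1.67 ± 0.49 for *Cd84*, 1.81 ± 0.48 for *Slamf8* and 1.88 ± 0.50 for *Slamf9* (SE). For *Cd48* it was 1.42 ± 0.46 and for *Ly9* 3.16 ± 0.92. None of the 18 signalling genes passed with it. Their log2 fold changes were still above 0, but that of *Prkcq* fell from 0.64 to 0.38, of *Ncf1* from 0.75 to 0.50 and of *Ncf4* from 1.39 to 0.93, and that of *Cybb* rose from 2.62 to 3.96. At an unadjusted p under 0.05, 15 genes of the list were higher and 0 lower.

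**Figure D2:**
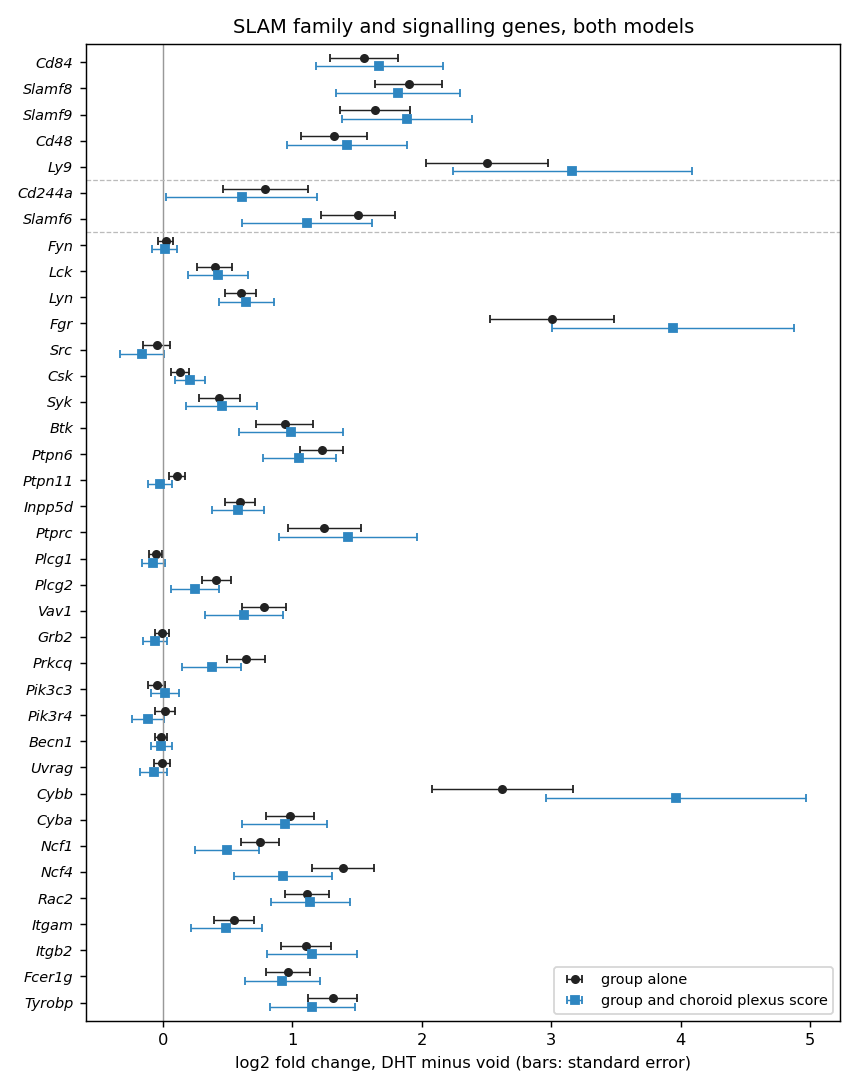
Log2 fold change between DHT-treated and void-treated mice for the SLAM receptors (top), *Cd244a* and *Slamf6* (middle) and tested signalling genes (bottom), from edgeR with group alone (black circles) and with the choroid plexus covariate added (blue squares); bars are standard errors. For the 5 tested members the estimates lie between 1.32 and 2.50 without the covariate and between 1.42 and 3.16 with it, with wider bars.

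**Figure D3:**
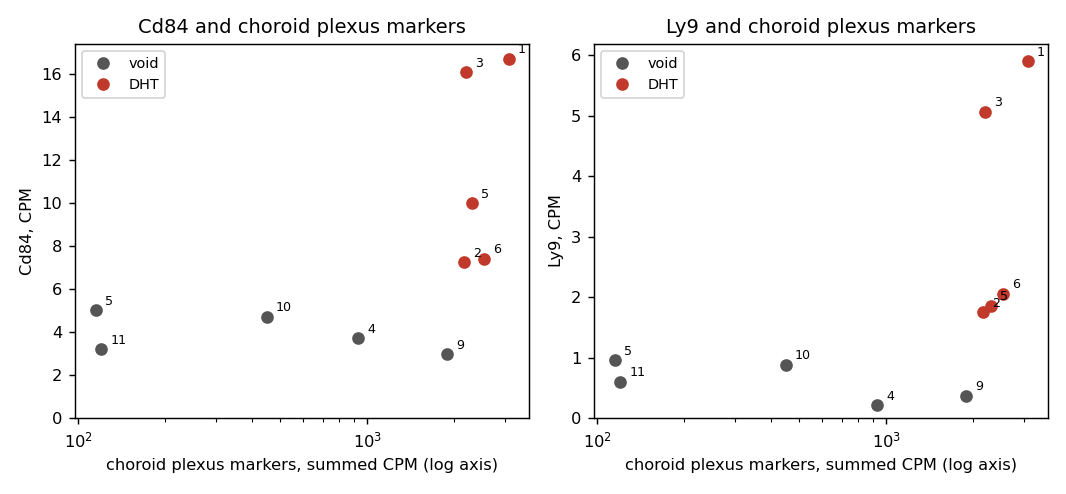
Level of *Cd84* (left) and *Ly9* (right) in CPM against the summed CPM of 12 choroid plexus markers on a log axis, 1 point per mouse, labelled by replicate number. The groups are apart on both axes; the highest void-treated mouse on the choroid plexus axis is replicate 9, at 1881 CPM, with a *Cd84* level of 2.98 CPM.

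Other leukocytes carry SLAM receptors, and many of their markers had few counts. Exceptions included *Ighm*, with 2416 counts over the void-treated and 4276 over the DHT-treated mice, and *Eomes*, with 236 and 389. For T cells, *Cd3d* had 1 count over the 5 void-treated mice and 13 over the 5 DHT-treated mice, *Cd3e* had 9 and 29, *Cd3g* 8 and 29, *Cd5* 8 and 23, *Cd8a* 15 and 62, and *Cd8b1* 8 and 16, while *Trbc2* had 49 and 45, *Trac* 125 and 142, and *Cd6* 63 and 69. The 10 T cell markers summed to 2.88 ± 0.577 CPM in void-treated and 3.76 ± 0.560 CPM in DHT-treated mice (SD, n = 5 each; two-sided exact permutation test, adjusted p = 0.153), with *Lck*, which also stands in the kinase list, the most abundant. Without *Lck* the sums were 1.70 and 2.19 CPM. The 8 NK and cytotoxic markers summed to 1.45 and 2.39 CPM (adjusted p = 0.360, exact permutation), and without *Eomes*, the most abundant, to 0.126 and 0.403 CPM. *Prf1* had 0 counts in every void-treated mouse and 6 over the DHT-treated mice, *Ncr1* had 3 and 6, *Klrb1c* 3 and 8, *Gzma* 2 and 7, *Gzmb* 2 and 11, *Klrd1* 8 and 19, and *Nkg7* 5 and 22. For B and plasma cells, the 8 markers summed to 15.5 and 23.5 CPM (adjusted p = 0.175, exact permutation), nearly all *Ighm*. The sum was 30.4 and 36.0 CPM in DHT replicates 1 and 3, and 16.3, 16.0 and 18.8 CPM in replicates 2, 5 and 6. The T cell sum was also highest in DHT replicates 1 and 3, at 3.91 and 4.61 CPM. The NK and cytotoxic sum was not, at 1.04 and 2.05 CPM against 4.96 CPM in DHT replicate 2. *Eomes* alone supplied 0.601, 1.53 and 4.56 CPM of these sums, so their order does not describe the other NK and cytotoxic markers. DHT replicates 1 and 3 were also the highest for *Cd84*, *Slamf9*, *Cd48* and *Ly9*, and what lies behind this was not tested. *Ms4a1* had 3 counts over the void-treated and 0 over the DHT-treated mice, *Cd79a* 15 and 15, and *Cr2* 69 and 67, while *Pax5* had 43 and 91, *Ighd* 45 and 83, and *Jchain* 43 and 130.

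Border-associated macrophage markers, led by *Mrc1*, summed to 8.30 CPM with void and 9.19 with DHT (adjusted p = 0.611, two-sided exact permutation test). DHT replicates 1 and 3 were again the highest of the DHT-treated mice, at 12.3 and 13.2 CPM, while void replicate 5 was at 16.0 CPM. Monocyte markers summed to 30.7 and 34.1 CPM (adjusted p = 0.299, exact permutation), of which all but 1.14 and 1.45 CPM came from *Vcan*, a gene that glial progenitors also express. Neutrophil markers, led by *S100a9*, summed to 0.561 and 0.545 CPM, and platelet markers, led by *Itga2b*, to 1.23 and 1.41 CPM (adjusted p = 0.960 and 0.504, exact permutation). Dendritic cell markers fell from 19.9 to 16.8 CPM (adjusted p = 0.0291, exact permutation). *Zbtb46* was the most abundant of them, and it and *Flt3* made up nearly the whole sum. The level of *Flt3* was 9.09 to 9.87 CPM with void and 6.76 to 7.79 CPM with DHT. No dendritic cell marker other than *Zbtb46* and *Flt3* was above 0.54 CPM in any mouse. *Flt3* was the marker past edgeR's test, 1 lower of 4 tested, beside 0.261% lower of all tested genes. The difference was lost when the mean over the list was taken in place of the sum (adjusted p = 0.335, exact permutation). Hippocampal neuron markers did not pass (adjusted p = 0.175, exact permutation).

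The SLAM genes lie on chromosome 1 of the mouse, most of them side by side. In the reference gene order, *Cd244a*, *Ly9*, *Slamf7*, *Cd48*, *Slamf1*, *Cd84* and *Slamf6* follow each other with only *Gm10521* between them, and 14 protein-coding genes separate *Slamf6* from *Slamf9* and 4 separate *Slamf9* from *Slamf8*. Of 28 protein-coding genes outside the family that lie between the members or within 5 genes of them, 20 were tested. At the adjusted p, 2 were higher and 1 was lower, beside 5.22% and 0.261% of all tested genes; 0 passed the fold limit as well, in edgeR or DESeq2, and 0 did so at an unadjusted p under 0.05. The tight-junction gene *F11r* rose by 0.90 ± 0.16 (log2, SE; adjusted p = 0.00980 in edgeR) and *Tagln2* by 0.50 ± 0.10 (adjusted p = 0.0170), while the potassium channel gene *Kcnj9* fell by 0.41 ± 0.11 (adjusted p = 0.0409). The median log2 fold change of the 20 neighbours was -0.032.

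Promoter sequences, from 250 bases before to 50 bases after the start of transcription, were found by symbol for 5 of the 6 members and for 8 of the 9 family genes in RefSeq (GRCm38.p6). They are shown for *Cd84*, *Slamf9* and *Slamf8*, which each hold the PU.1-type core named next. Of 5 motifs searched on both strands, the PU.1-type core GAGGAA was in 3 of the 5 member promoters (*Cd84*, *Slamf9* and *Slamf8*) and in 28.3% of all 32851 promoters. The AP-1 motif TGANTCA was in 3 (*Slamf7*, *Cd84* and *Slamf8*; 7.81% of all), and AGGTCA, the core that many nuclear receptors bind, in 1 (*Cd84*; 16.3% of all). The interferon response core, GAAA followed by any 2 bases and GAAA again, was in 1 (*Slamf8*; 3.44% of all). AGAACA, the core of androgen response elements, was in 0 of the 5 and in 19% of all promoters. *Cd48* held none of the 5 motifs in this window, and *Ly9* had no entry. In the sequences below, which run from 250 bases before the start to the base before it, capitals mark every motif match on either strand. In *Cd84* (chr1:171839447-171839696, plus strand) AGGTCA began 243 bases and TGAGTCA 229 bases upstream of the start. In *Slamf9* (chr1:172475110-172475359, plus strand) GAGGAA began 8 bases upstream. In *Slamf8* (chr1:172590569-172590818, minus strand) the interferon response core lay on the opposite strand from 15 bases upstream. The GAGGAA matches of *Cd84* and *Slamf8* and the AP-1 match of *Slamf8* lay after the start, outside the stretch shown.
Cd84: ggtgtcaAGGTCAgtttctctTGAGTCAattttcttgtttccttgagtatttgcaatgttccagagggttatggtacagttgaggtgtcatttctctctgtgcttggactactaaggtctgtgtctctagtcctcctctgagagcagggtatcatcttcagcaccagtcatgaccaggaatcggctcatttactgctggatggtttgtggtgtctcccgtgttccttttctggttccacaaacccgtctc
Slamf9: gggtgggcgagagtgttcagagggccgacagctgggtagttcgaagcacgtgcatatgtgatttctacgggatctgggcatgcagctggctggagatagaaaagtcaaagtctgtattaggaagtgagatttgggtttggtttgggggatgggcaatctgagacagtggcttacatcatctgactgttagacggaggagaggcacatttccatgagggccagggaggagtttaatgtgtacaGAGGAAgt
Slamf8: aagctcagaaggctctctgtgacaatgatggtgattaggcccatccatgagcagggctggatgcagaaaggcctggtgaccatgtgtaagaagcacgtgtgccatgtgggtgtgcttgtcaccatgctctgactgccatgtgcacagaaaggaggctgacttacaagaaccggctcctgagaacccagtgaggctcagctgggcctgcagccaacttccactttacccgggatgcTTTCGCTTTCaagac
A match is a description of the letters in this window, and no binding was measured here.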

How the data were processed

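RNA-seq libraries were made by the authors from hippocampal RNA of 10 mice with an mRNA kit and sequenced as paired-end reads of 100 bases. The authors deposited raw counts per gene, without normalization, after cleaning reads with HTStream and aligning them with STAR 2.7.10b. The methods name the mm10 build and the submitters' processing notes name mm39, and the annotation release and the treatment of strand and of reads matching several genes are not given in the sources used here. Of 56884 gene identifiers, 51948 had a symbol in GENCODE M21. Only 35 shared its version number, so that reference gave names, gene types, exon lengths and gene order and no coordinates.

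The counts were fitted with edgeR 4.0.16 in R 4.3.3. TMM factors, the expression filter by group and the quasi-likelihood test were used, with p adjusted by Benjamini and Hochberg over 17622 genes. The standard error (SE) was taken as the size of the log2 fold change over the root of its F statistic. Log2 CPM used a prior count of 2, and summed marker CPM a pseudocount of 0.5, with two-sided exact permutation tests over mice. The alternatives were DESeq2 1.42.0, its size factors, library size alone, no filter beyond 1 count, at least 10 counts in every library, a choroid plexus covariate (mean log2 CPM of 12 markers), other marker summaries, and each mouse left out in turn. Both count models were first checked on simulated counts, and the outcome of that check is not reported here. To see whether a library had been deposited more than once, counts were compared within groups: chi-square per gene was 9.68 or more in all 20 pairs, so each was used as 1 mouse.

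The genes named are the 9 family genes, the signalling list, the most abundant gene of each marker list, the 5 genes most like each filtered member, and neighbouring genes past the test; a few of these genes are not reported here. Single markers named for their counts were picked with their values in view. The members and lists were chosen with earlier results of these data known.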

Additional observations from a re-analysis of the deposited data

Results flagged for a closer look

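In 4 of 76 groups of 5 mice examined, 1 mouse stood apart from the rest, where chance gives about 3.8. The gap to the nearest mouse, as a share of the group's whole range, was 0.719 for the summed microglia markers in void replicate 10 and 0.801 for the same sum in DHT replicate 1, both at the high end. *Vav1* was high in void replicate 10 (share 0.731), at 6.12 CPM, and *Ncf1* was high in DHT replicate 1 (share 0.718), at 16.6 CPM. No mouse stood apart by this measure for any of the 6 SLAM receptors in either group. Without DHT replicate 1 the log2 fold change of *Cd84* was 1.34 and that of *Ly9* 2.16.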

How the results depend on the processing

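No paired analysis was possible because 5 is the only replicate number found in both groups. The log2 fold changes of the 5 tested members moved by less than 1 SD between mice, pooled over the 2 groups, under every alternative, as did the differences of the 6 members relative to microglia markers; with each mouse left out they ranged from 1.34 to 1.68 for *Cd84*, from 1.69 to 2.07 for *Slamf8*, from 1.44 to 1.78 for *Slamf9*, from 1.09 to 1.49 for *Cd48* and from 2.16 to 2.75 for *Ly9*.

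Counts of genes depended on the setting. With the choroid plexus covariate, edgeR called 0 genes higher and 0 lower, with or without the fold limit, and 0 signalling genes higher; DESeq2 was not run with it. The lowest choroid plexus score with DHT was above the highest with void, and the standard errors of the members rose from between 0.25 and 0.47 to between 0.46 and 0.92. With the fold limit, 7 genes were lower in DESeq2, 8 without a filter beyond 1 count and 2 with at least 10 counts in every library, against 4. At the adjusted p alone, DESeq2 called 1221 higher and 224 lower, so that 84.5% of its calls were higher against 95.2% in edgeR. With each mouse left out, the genes called higher ranged from 175 (without DHT replicate 1) to 513 (without void replicate 9), and fell to 250, 197 and 242 without void replicates 4 and 11 and DHT replicate 3. Those called lower ranged from 0 to 7, those higher at the adjusted p from 351 to 1072, those lower from 5 to 77, and the signalling genes higher from 9 to 21. The cause was not tested.

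The summed choroid plexus markers differed by 2.13 to 3.14 with each mouse left out, and the adjusted p was above 0.05 when any 1 of the DHT-treated mice was left out (0.0655 to 0.0873, exact permutation). The groups stayed apart in each case, since every DHT-treated mouse lay above every void-treated mouse. With a mouse left out the test has fewer regroupings, so its p values are coarser. The border-associated macrophage sum ranged from -0.043 to 0.57 and the neutrophil sum from -0.16 to 0.15, neither past the threshold. The dendritic cell difference was -0.055 as a mean over the list.

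Signs turned for signalling genes that did not pass the test. *Fyn* was at -0.00753 with DESeq2, at -0.00726 with its size factors in edgeR and between -0.039 and 0.052 with a mouse left out, and *Pik3r4* at -0.0133, at -0.0130 and between -0.032 and 0.045. *Grb2* was at 0.00393 with library size alone and between -0.054 and 0.011, and *Uvrag* at 0.00303 and between -0.088 and 0.00314. With the covariate, *Ptpn11* was at -0.022, *Pik3c3* at 0.018 and *Pik3r4* at -0.12. *Itgam* and *Plcg2* passed in DESeq2 (adjusted p = 0.0250 and 0.0219) and without DHT replicate 2, *Itgam* also without DHT replicate 6 and *Plcg2* with library size alone. *Syk* passed without DHT replicate 2 (adjusted p = 0.0417) and ran to 0.816 with the covariate. Over all alternatives the adjusted p of *Itgam* and *Plcg2* ran to 0.795 and 0.884, both with the covariate. *Btk*, *Ptprc*, *Vav1* and *Prkcq* lost the threshold without each of 4 or 5 of the mice.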
